A study of Mus musculus with 8 samples.

Results

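Glycolysis and hypoxia response genes were followed in 4T1 and TS/A, 2 breast cancer cell lines of the mouse. The set held 36 named genes of the 22044 genes in the deposited tables. They were found by the gene symbol that the GENCODE annotation gives each listed transcript. For the few transcripts it lacks, the listed name was used with a trailing number removed. The reads of a gene's transcripts were summed. All 36 were present, and they cover glucose uptake, the glycolytic enzymes, the fate of pyruvate and lactate, mitophagy, the oxygen sensors with the alpha subunits of hypoxia-inducible factor (HIF), and other hypoxia-induced genes.

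Glycolysis splits glucose to pyruvate, and many tumour cells turn much of that pyruvate into lactate even where oxygen is present. Prolyl hydroxylases of the Egln family use oxygen to mark HIF alpha subunits for destruction by the VHL ubiquitin ligase. When oxygen is short the alpha subunits persist, pair with Arnt and bind short DNA cores to induce glucose transporters, glycolytic enzymes, mitophagy receptors and the hydroxylase Egln3 itself.

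The series measured whole transcriptomes by bulk RNA sequencing in 8 libraries, 2 for each combination of line and vector. The lines are labelled as BALB/c and were grown in RPMI with 10% FCS. The vector named for each sample is either empty or one that expresses Gpr56, also called Adgrg1, an adhesion receptor for which type III collagen is a known ligand. The design text gives 72 h of culture with type III collagen for Gpr56-transduced cells and does not say whether cells with the empty vector had it. The titles instead name the 2 conditions of each line Emp_Control and Emp_ColIII. Groups follow the named vector, and by the labels a difference of vector and one of collagen cannot be told apart. The promoter of the vector is not stated, nor whether transduced cells were 1 clone or a pool. Nothing states that libraries of 1 group were separate cultures, so the p-values here measure no more than the spread of these samples, which may be technical.

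Libraries held from 10510569 to 25959142 reads, and 3 reads, the limit that a count of 0 allows, were worth 0.114 to 0.281 CPM, the read count scaled to a common library size. That limit covers counting error only. In 4T1, Adgrg1 stood at 2.53 and 2.77 CPM in empty-vector libraries and at 90.5 and 100.1 CPM in Gpr56 libraries. Its TS/A values were 34.8 and 16.3 CPM in the libraries labelled empty and 22.6 and 13.3 CPM in those labelled Gpr56. These overlapped and went against the label, so those groups are named by label throughout. All 6 epithelial markers were higher in every 4T1 library than in every TS/A library. In 4T1, Cdh1 ranged from 263 to 434 CPM of the library total, and in TS/A from 0 to 0.193 CPM. Krt18 was at 157 to 202 CPM in TS/A, and of 8 fibroblast markers Col1a1 reached 131 to 328 CPM there, with Pdgfra at 7.96 to 15.8 CPM, Pdgfrb at 1.84 to 9.43 CPM, Dcn and Col1a2 at most 0.260 CPM, and Lum, Fap and Thy1 at 0 reads. Of 12 immune markers, Cd14 alone passed 1 CPM, at 5.67 to 11.3 CPM; Cd3e and Adgre1 had 0 reads, and the summed list lay at 5.80 to 11.7 CPM. In bulk RNA, fewer cells of a type and less RNA per cell cannot be told apart.

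The DNA cores bound by HIF are ACGTG and GCGTG. RefSeq promoters (GRCm38.p6) were at hand for 32 of the 36 genes, with 49 starts in all. For 6 of these genes the 250 bases before the start are shown. Hk2, Ldha and Egln3 were picked from the genes whose transcripts changed with the vector in 4T1. Bnip3, Ankrd37, Ldha and Pgk1 were picked from those that differed most between the 2 TS/A libraries labelled empty. Every stretch shown holds ACGTG, which was not so for all such genes. Higd1a and Pdk1 also passed 1.5-fold between those TS/A libraries, and Tpi1 fell in 4T1. Higd1a, Pdk1 and Tpi1 had no ACGTG before any listed start. Slc2a1, Pfkfb3, Car9, Aldoa and Hif1a, which changed in 4T1 and are not shown, had it before at least 1 start. Each stretch shown reads 5′ to 3′ on the gene's strand, and capitals mark ACGTG or GCGTG on either strand.
Hk2, chr6:82774455-82774704, minus strand: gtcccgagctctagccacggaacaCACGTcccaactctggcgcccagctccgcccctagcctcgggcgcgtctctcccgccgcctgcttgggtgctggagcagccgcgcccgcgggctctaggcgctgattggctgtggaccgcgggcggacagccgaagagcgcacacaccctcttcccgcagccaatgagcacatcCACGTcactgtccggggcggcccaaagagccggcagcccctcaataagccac
Ldha, first start, chr7:46845554-46845803, plus strand: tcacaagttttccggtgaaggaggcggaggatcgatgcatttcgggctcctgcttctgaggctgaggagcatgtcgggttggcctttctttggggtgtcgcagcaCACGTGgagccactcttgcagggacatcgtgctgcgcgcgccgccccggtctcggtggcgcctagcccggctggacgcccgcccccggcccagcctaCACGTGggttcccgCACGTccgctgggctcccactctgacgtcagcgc
Pgk1, chrX:106186850-106187099, plus strand: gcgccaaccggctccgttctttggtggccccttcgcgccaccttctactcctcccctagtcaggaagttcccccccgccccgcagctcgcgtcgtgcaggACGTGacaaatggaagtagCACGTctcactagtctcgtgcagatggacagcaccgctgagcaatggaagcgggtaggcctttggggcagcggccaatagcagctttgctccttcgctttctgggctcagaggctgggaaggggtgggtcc
Egln3, chr12:54203875-54204124, minus strand: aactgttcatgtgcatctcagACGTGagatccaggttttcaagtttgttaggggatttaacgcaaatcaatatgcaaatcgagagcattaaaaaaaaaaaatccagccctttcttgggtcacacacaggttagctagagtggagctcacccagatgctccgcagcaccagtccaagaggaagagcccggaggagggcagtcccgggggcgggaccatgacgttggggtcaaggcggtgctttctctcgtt
Bnip3, chr7:138909507-138909756, minus strand: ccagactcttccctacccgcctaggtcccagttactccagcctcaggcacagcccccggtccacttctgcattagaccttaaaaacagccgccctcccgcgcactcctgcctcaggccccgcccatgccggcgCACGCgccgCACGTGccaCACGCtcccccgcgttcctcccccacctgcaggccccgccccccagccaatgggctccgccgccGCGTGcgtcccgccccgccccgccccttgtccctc
Ankrd37, chr8:45999851-46000100, minus strand: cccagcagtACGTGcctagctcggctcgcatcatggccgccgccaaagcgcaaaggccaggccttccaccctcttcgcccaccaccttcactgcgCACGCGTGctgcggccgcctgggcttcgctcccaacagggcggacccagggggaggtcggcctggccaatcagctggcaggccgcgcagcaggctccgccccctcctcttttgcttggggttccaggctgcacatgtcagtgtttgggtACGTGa

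Counting overlapping matches once, the Ldha stretch held 3 ACGTG matches and the Hk2, Pgk1 and Ankrd37 stretches 2 each. Egln3 and Bnip3 held 1 each, and Bnip3 also held 3 GCGTG matches. Over all starts, ACGTG was present in 22 of 49 promoters of the set (44.9%) and in 16.6% of the 32851 promoters of the same length in the table. GCGTG was present in 49.0% of the set's promoters and in 28.2% of all. By gene, 18 of the 32 (56.2%) had ACGTG before at least 1 start, beside 18.5% of the 27025 genes in the table. The palindrome CACGTG, the E-box bound by Myc and other factors, holds ACGTG on both strands. Of the stretches shown, Ldha carried 2 of them and Bnip3 carried 1. A match is a description of these letters, not a bound site.

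The members differed widely in level. On the length-corrected RPKM scale of the deposited files, the highest were Gapdh, the dehydrogenase of mid-glycolysis, and Pkm, pyruvate kinase. Gapdh stood at 1724 ± 25.97 RPKM (SD, n = 2) in 4T1 with the empty vector and at 2159 ± 269 RPKM in TS/A labelled empty. Pkm stood at 1430 ± 10.8 RPKM and 1690 ± 1.48 RPKM in the same groups. Ldha, the lactate dehydrogenase subunit that favours lactate, followed at 1167 ± 7.15 RPKM in 4T1 and 1443 ± 483 RPKM in TS/A, and Pgk1, phosphoglycerate kinase, at 747 ± 16.2 RPKM and 1185 ± 334 RPKM. In the TS/A libraries labelled empty, Pgk1 lay below Gapdh and Pkm in both, and Ldha below Gapdh in both, while Ldha and Pkm overlapped. The remaining main enzymes Eno1 (enolase), Pgam1 (phosphoglycerate mutase), Aldoa (aldolase) and Tpi1 (triose phosphate isomerase) lay between 333 and 734 RPKM as group means in both lines, and Gpi1, glucose phosphate isomerase, between 141 and 172 RPKM.

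Entry and control steps were lower than the main enzymes. The hexokinases Hk1 and Hk2, which trap glucose by phosphorylation, stood at 32.3 ± 0.687 and 14.3 ± 0.840 RPKM in 4T1 with the empty vector. The glucose transporter Slc2a1 (GLUT1) stood at 28.1 ± 0.209 RPKM there, and the monocarboxylate transporter Slc16a1 (MCT1), which carries lactate across the membrane, at 64.7 ± 0.347 RPKM. Of the set, 4 genes were at or near 0 reads in at least 1 line. Epas1, which encodes HIF-2 alpha, had 1 read in 2 libraries, both of 4T1, and 0 in the others, against Hif1a at 36.7 to 46.1 RPKM in all 8. The lactate exporter Slc16a3 (MCT4) had 0 to 12 reads per library, the glucose transporter Slc2a3 (GLUT3) had 0 reads in all 4T1 libraries, and Ldhb, the heart-type lactate dehydrogenase subunit, had 0, 0, 0 and 4 reads in TS/A. Reads of Eno1 may be shared with its near-identical retrocopy Eno1b, which was listed with 31168 reads in the first 4T1 empty-vector library, so values of Eno1 are uncertain. Many pseudogene copies of Gapdh, Pgk1, Ldha and Tpi1 exist as well, and how such reads were assigned is not given in the sources used here.

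**Figure D1:**
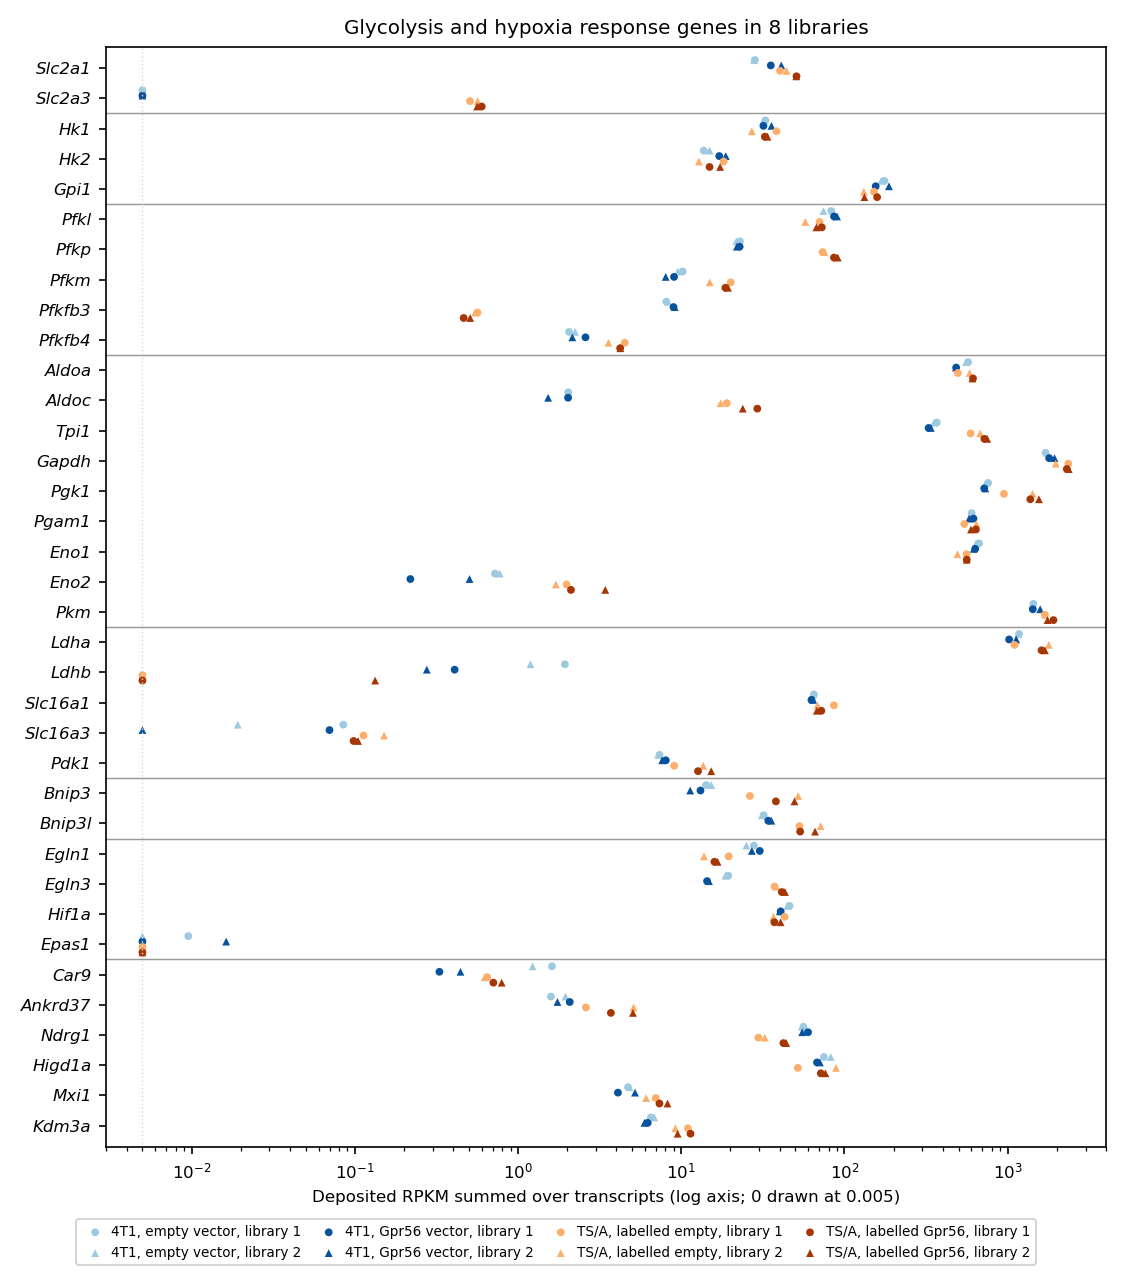
Level of each gene in RPKM, summed over its transcripts, on a log axis; circles are library 1 and triangles library 2 of each group, and lines divide the roles. Gapdh, Pkm, Ldha and Pgk1 lie at the right, while Slc2a3, Ldhb, Slc16a3 and Epas1 reach 0 reads in some libraries (drawn at 0.005).

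In 4T1, some genes of the set were higher and others lower with the Gpr56 vector. The glucose transporter Slc2a1, the hexokinase Hk2 and Pfkfb3, which makes the activator of phosphofructokinase, rose by 1.198- to 1.318-fold. Of the others, 6 fell: Car9, by 1.95 on the log2 scale, and Egln3, Aldoa, Hif1a, Ldha and Tpi1, by 0.42 or less. Hk1, Gpi1, Pfkl, Pfkp, Pfkm and Pfkfb4, which act at the same early steps, did not pass the test. In edgeR's quasi-likelihood test on the 4 libraries of 4T1, 33 of the 36 genes passed the filter on low counts (not Slc2a3, Slc16a3 and Epas1). Ldhb passed it through the empty-vector libraries alone, so its values are given without a test. Of the other 32 genes, 3 rose, where 11.4% of all 11372 genes tested rose, and 6 fell, where 11.2% of all genes fell, so 9 changed in either direction beside 22.7% of all genes.

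Slc2a1 (chr4:119108711-119137983, GRCm38) had 82.8 and 81.8 CPM with the empty vector, against 104.1 and 113.5 CPM with the Gpr56 vector. Both Gpr56 libraries lay above both empty ones. Its log2 fold change was 0.40 (SE 0.06, edgeR adjusted p = 4.69e-04). Hk2 had 80.8 and 88.6 CPM with the empty vector, against 99.2 and 107.8 CPM with Gpr56, again without overlap. The log2 fold change of Hk2 was 0.28 (SE 0.07, edgeR adjusted p = 0.00793), and without the first empty-vector library it was 0.22 (edgeR adjusted p = 0.114). Hk1, the constitutive hexokinase, had 128 and 123 CPM against 123 and 136 CPM and did not pass the test.

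Pfkfb3 (chr2:11471433-11554077) had 34.1 and 35.9 CPM with the empty vector, against 42.8 and 40.9 CPM with Gpr56. The groups did not overlap, and the log2 fold change was 0.26 (SE 0.08, edgeR adjusted p = 0.0312). That call was lost without either empty-vector library (edgeR adjusted p = 0.256 and 0.125) and without the first Gpr56 library (0.114), each of which leaves 1 library in a group, assumed to vary like the rest. DESeq2 on the 4 libraries did not call it either (adjusted p = 0.149). The phosphofructokinase subunits Pfkl, Pfkp and Pfkm, which run the committed step, and Pfkfb4, the sister of Pfkfb3, did not pass the test, with log2 differences from -0.23 (Pfkm) to 0.15 (Pfkfb4).

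Car9 (chr4:43506966-43513729) encodes carbonic anhydrase 9, a surface enzyme that buffers acid and a classical HIF target. Its level was low, at 3.49 and 2.68 CPM with the empty vector (62 and 57 reads) and at 0.702 and 0.938 CPM with Gpr56 (15 and 10 reads). The groups lay far apart, and Car9 fell by 1.95 on the log2 scale (SE 0.38, edgeR adjusted p = 0.00196). Egln3, the HIF-induced prolyl hydroxylase whose promoter is printed above, had 55.2 and 53.5 CPM with the empty vector, against 40.3 and 41.1 CPM with Gpr56. It fell by 0.42 (SE 0.07, edgeR adjusted p = 8.19e-04) with no overlap between groups. Egln1, the main oxygen sensor under normal oxygen, had 107 and 97.1 CPM against 114.5 and 101.5 CPM, and its groups overlapped. Hif1a had 225 and 221 CPM with the empty vector, against 198 and 193 CPM with Gpr56. It fell by 0.19 (SE 0.05, edgeR adjusted p = 0.0221), a call lost without either empty-vector library (0.207 and 0.136) and with library totals as the scaling (0.0537).

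Among the lower enzymes, Aldoa had 915.5 and 895.8 CPM with the empty vector, against 760.6 and 745.0 CPM with Gpr56. It fell by 0.27 (SE 0.05, edgeR adjusted p = 0.00153), and the groups did not overlap. Tpi1 went from 631 and 612 CPM to 553 and 558.5 CPM, a log2 fold change of -0.16 (SE 0.05, edgeR adjusted p = 0.0338). Ldha went from 1946 and 1944 CPM to 1673 and 1806 CPM, also -0.16 (SE 0.05, edgeR adjusted p = 0.0354). Both calls were lost without either empty-vector library (Tpi1 0.329 and 0.165, Ldha 0.241 and 0.239), that of Ldha also without the first Gpr56 library (0.0758), and that of Tpi1 with the replicate number as a block (0.0566). With library totals as the scaling, edgeR gave adjusted p = 0.0850 for Tpi1 and 0.0837 for Ldha. Ldhb had 48 and 33 reads (2.70 and 1.55 CPM) with the empty vector, against 10 and 3 reads (0.468 and 0.281 CPM) with Gpr56. Both Gpr56 libraries lay below both empty-vector ones.

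The other 23 genes tested did not pass in 4T1, with log2 differences from -0.98 (Eno2, thinly covered, edgeR adjusted p = 0.191) to 0.15 (Pfkfb4). They include Bnip3, a HIF-induced mitophagy receptor, with 24.0 and 25.05 CPM against 21.7 and 19.0 CPM. The Bnip3 groups did not overlap, and the log2 difference was -0.26 (SE 0.11, edgeR adjusted p = 0.107). Without the first Gpr56 library it was -0.37 (edgeR adjusted p = 0.0474), and Eno1 also passed then, at -0.13 (0.0415). Pdk1, a kinase that inhibits pyruvate dehydrogenase, Ndrg1, a stress gene, and Higd1a, a mitochondrial hypoxia protein, had log2 differences of 0.08, 0.04 and -0.14. Groups did not overlap for 22 of the 33 genes (Ldhb included), 6 higher and 16 lower with Gpr56, where 61.6% of all genes did not overlap (30.4% higher, 31.2% lower). The median log2 difference of the 33 was -0.0642, beside -7.4e-05 over all genes tested.

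**Figure D2:**
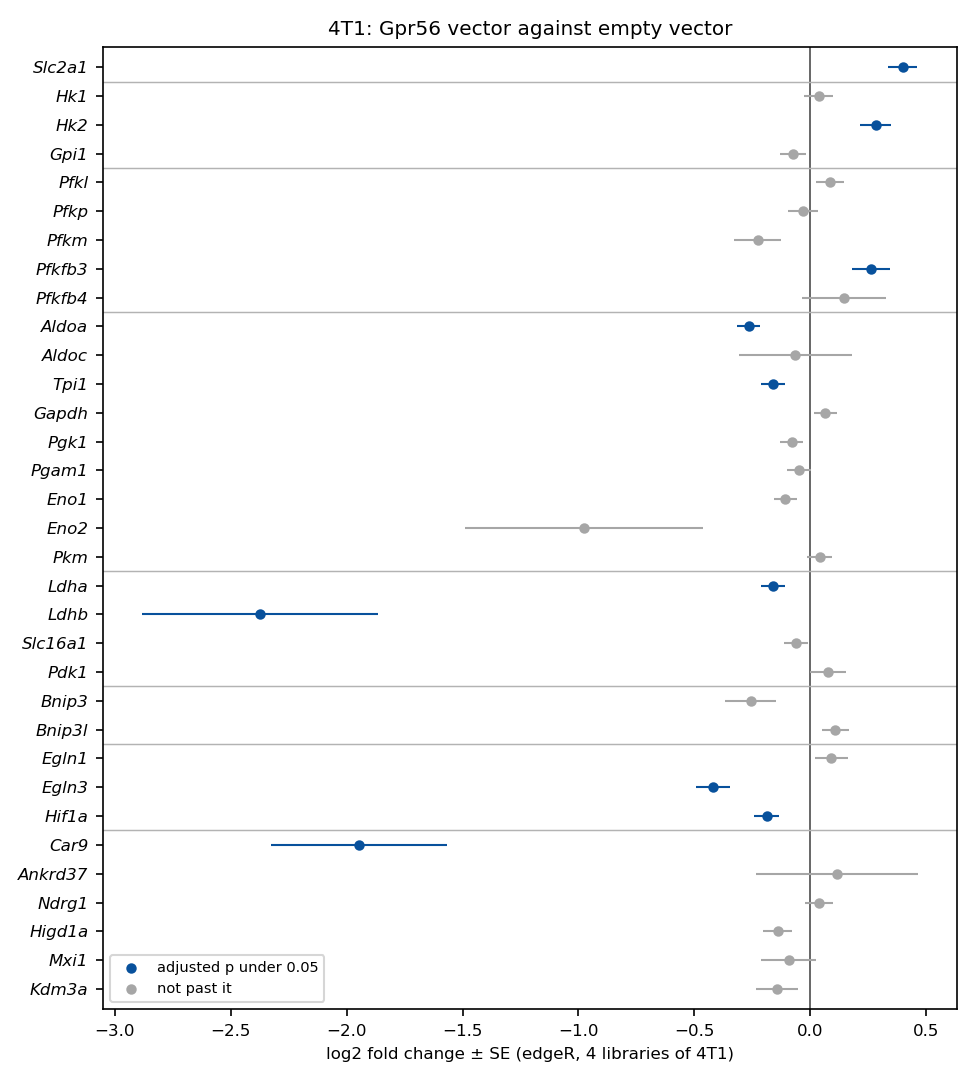
Log2 fold change of each gene with the Gpr56 against the empty vector in 4T1, with bars of 1 SE, from edgeR on 4 libraries; blue marks adjusted p under 0.05. Ldhb (which passed the low-count filter through 1 group alone) and Car9 lie far to the left, and the other coloured points lie within 0.42 of 0.

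The biological coefficient of variation was 5.52% in the 4T1 fit and 14.7% when all 8 libraries shared 1 estimate. In that shared fit edgeR called 0 of these genes for the 4T1 vector, with 4 at an unadjusted p under 0.05 and adjusted p-values from 0.0923 (Car9) upwards. It called 0.225% of all genes, 0.125% higher and 0.1% lower. Epithelial markers also moved with the vector in 4T1: 5 of 6 rose, and their summed level went from 1560 to 1576 CPM of the library total to 2151 to 2159 CPM. The summed fibroblast markers, mainly Pdgfra, went from 15.2 to 15.4 CPM to 8.64 to 9.51 CPM. The part of these in the changes above was not tested.

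Among 31 other HIF target genes tested in 4T1, 1 rose and 7 fell, and the list's median log2 difference was -0.00973. Beside 11.4% higher and 11.2% lower over all genes, this and the lists that follow are described by their counts alone. Vegfa, the angiogenic growth factor, fell from 25.6 ± 2.66 CPM (SD, n = 2) to 15.7 ± 1.58 CPM, by 0.70 on the log2 scale (edgeR adjusted p = 9.35e-04). Ddit4, an inhibitor of mTOR signalling, fell from 22.2 ± 1.38 CPM to 11.99 ± 1.204 CPM, by 0.91 (edgeR adjusted p = 1.54e-04). Zfp395 rose by 0.36 (edgeR adjusted p = 0.0305). Of 13 genes of HIF hydroxylation and the VHL machinery, 1 rose and 3 fell, with Elob (elongin B) at -0.37, Arnt, the HIF beta subunit, at -0.29 and the coactivator Crebbp at 0.33 (list median -0.0412).

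Of the side branches in 4T1, the pentose phosphate pathway had 4 of 10 genes higher and 1 lower, with a median of 0.0175. Pgls, its lactonase, rose by 0.42 and Rpia, a ribose isomerase, by 0.34, while Prps1 fell by 0.28. Pyruvate entry and the tricarboxylic acid cycle had 3 of 29 higher and 2 lower, led by the kinase Pdk3 at 0.48 and the pyruvate carrier subunit Mpc2 at 0.41, with Sdhb at -0.28 and Dld at -0.25 (median -0.0486). Glycogen and hexosamine genes had 0 of 11 higher and 2 lower (among them Ugp2 at -0.42; median -0.0434). Glycolysis regulators had 4 of 13 higher and 0 lower, with Txnip, a glucose-induced brake on glucose uptake, at 0.77 and Mlxip, a glucose-sensing factor, at 0.25 (median 0.0175). Of 13 scarcer isoenzymes and gluconeogenic genes, Pfkfb2 alone passed, at 0.50 (median 0.0374). These are log2 fold changes from the same edgeR test, and each named gene passed it.

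In TS/A, none of the 34 genes tested (not Ldhb and Epas1) passed between the libraries labelled Gpr56 and those labelled empty. edgeR gave adjusted p = 0.9999 for each and called 0% of 11287 genes, with 114 genes and 1 gene of the set, Aldoc, at an unadjusted p under 0.05. DESeq2 and limma-voom called 0 of the set as well. With all 8 libraries in 1 fit, edgeR called 0 of the set, with 2 at an unadjusted p under 0.05, and 0.00835% of all genes (1 gene, lower). Aldoc, the brain-type aldolase, had 36.1 and 35.9 CPM in the libraries labelled empty and 57.2 and 47.5 CPM in those labelled Gpr56. Its log2 difference was 0.54 (SE 0.18, unadjusted p = 0.0259 in edgeR) with no overlap. Ndrg1 had 83.6 and 99.2 CPM against 118 and 129 CPM, a log2 difference of 0.43 (SE 0.19). Groups did not overlap for 14 of the 34 genes, 11 higher and 3 lower, where 21.8% of all genes did not overlap, 11.4% higher and 10.4% lower. The median log2 difference of the 34 was 0.104, beside -0.0155 over all genes.

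The spread within TS/A was wider than within 4T1. The biological coefficient of variation was 19.6% in the TS/A fit. Between the 2 libraries labelled empty, 24.8% of all genes differed by more than 1.5-fold, against 2.93% to 4.52% between the libraries of each other group. Of 35 genes of the set, 6 passed 1.5-fold there, all higher in the second library, beside those 24.8% of all genes in either direction. In the other groups those past it were the thinly covered Ldhb and Slc16a3 in 4T1 with the empty vector and Slc16a3 in 4T1 with Gpr56, each lower in the second library. These ratios compare single libraries and carry no test, and the shares of all genes by direction were not counted.

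Bnip3 went from 42.0 CPM in the first TS/A library labelled empty to 101 CPM in the second, and Ankrd37, an ankyrin-repeat protein induced by HIF, from 2.38 to 5.22 CPM. Ldha went from 1721 to 3062 CPM, Pgk1 from 1735 to 2867 CPM, Higd1a from 54.1 to 95.7 CPM and Pdk1 from 47.0 to 78.1 CPM. The libraries labelled Gpr56 lay between those values for Bnip3 (65.0 and 86.7 CPM), Ldha (2580 and 2797 CPM), Ankrd37 and Higd1a. For Pgk1 (2610 and 3013 CPM) and Pdk1 (68.3 and 84.1 CPM) the second lay above both. Hk1, Hk2 and Egln1 were lower in the second library, by less than 1.5-fold: Hk2 was at 100.5 and 77.8 CPM and Egln1 at 70.4 and 54.8 CPM.

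Among the 31 other HIF target genes, 5 were over 1.5-fold higher in the second TS/A library labelled empty and 3 were lower. Over all genes, 24.8% passed 1.5-fold there in either direction, so the count is a description. The list's median log2 ratio was 0.0514, beside -0.0421 over all genes. Hilpda, a lipid droplet protein induced by hypoxia, went from 17.8 to 42.1 CPM, Ddit4 from 25.3 to 57.5 CPM and Fam162a from 77.0 to 127 CPM. Adm and Stc2 were also higher, and Bhlhe41, Angptl4 and Zfp395 lower. Adgrg1 (34.8 and 16.3 CPM) and Col1a1 (328 and 131 CPM of the library total) were lower in that second library as well. Between the libraries labelled Gpr56, 1 gene of the list was over 1.5-fold higher in the second and 1 lower, with a median of 0.0669. The part of any of these in the result was not tested.

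**Figure D3:**
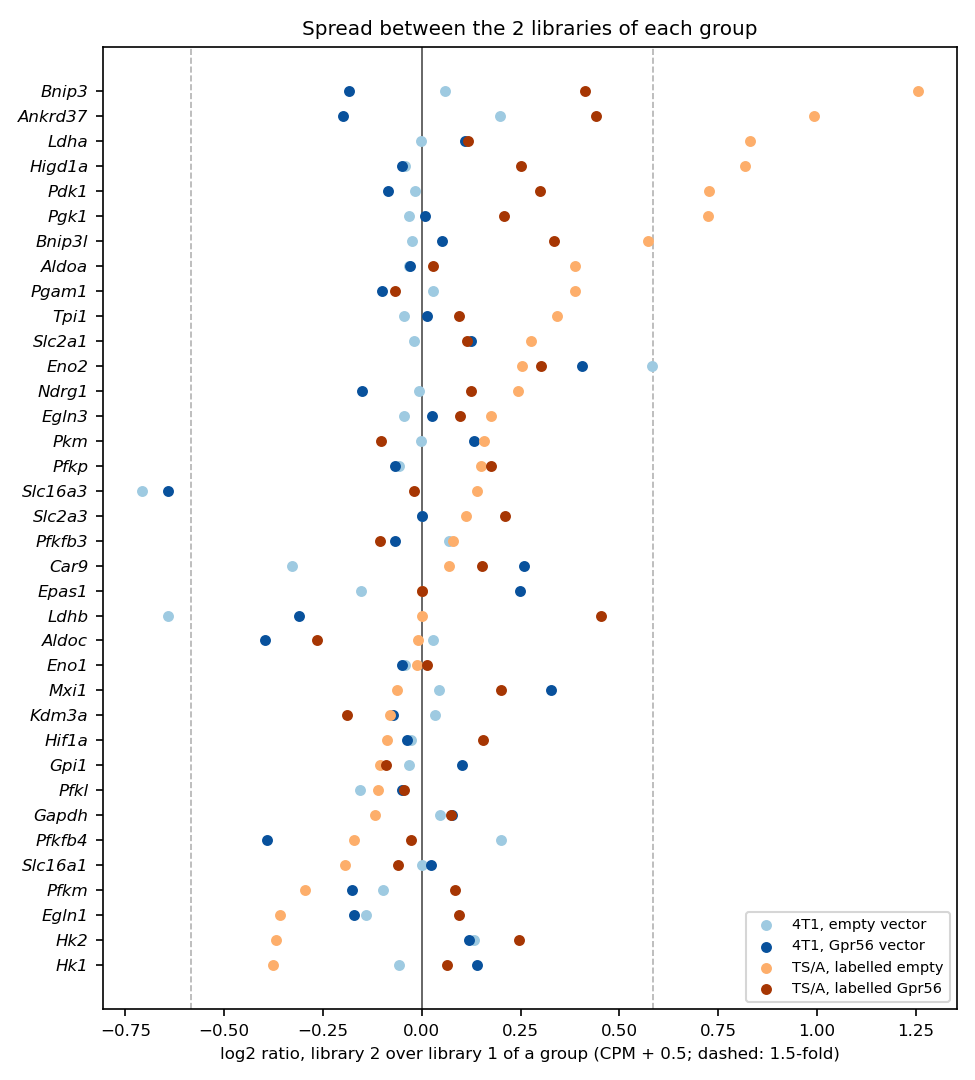
Log2 ratio of library 2 over library 1 within each of the 4 groups, on CPM with 0.5 added, ordered by the ratio in TS/A labelled empty; dashed lines mark 1.5-fold. Bnip3, Ankrd37, Ldha, Higd1a, Pdk1 and Pgk1 lie beyond the right dashed line in TS/A labelled empty, and in no other group. In TS/A labelled Gpr56 they also lie to the right of 0, within the dashed line.

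The TS/A result changed with the libraries used. Without the second library labelled empty, Bnip3 was at 0.87 on the log2 scale, beside 0.07 with all 4 libraries. Pgk1 was at 0.72 beside 0.28, Pdk1 at 0.72 beside 0.28, Ldha at 0.67 beside 0.16 and Ndrg1 at 0.59 beside 0.43. These were the genes of the set past the threshold in that fit, all higher with the Gpr56 label. Far more of all genes also passed in that fit than with all 4 libraries, as given below, without a split by direction. These values are thus effect sizes and no result about the set. Without the first library labelled empty, Ndrg1 was at 0.31. Each of these fits leaves 1 library in a group, which is assumed to vary like the others.

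The difference between the vector effects of the 2 lines was tested in 1 fit of all 8 libraries. None of the 35 genes tested passed in edgeR, DESeq2 or limma-voom, and 6 had an unadjusted p under 0.05 in edgeR. It called 0.0668% of all 11980 genes, 0.0167% higher and 0.0501% lower. Positive values mean a higher log2 fold change in TS/A. Car9 had 2.17 (SE 0.48, edgeR adjusted p = 0.356), Eno2 1.44 (SE 0.54, 0.701), Aldoc 0.61 (SE 0.25, 0.751), Egln3 0.58 (SE 0.16, 0.516) and Pfkfb3 -0.64 (SE 0.21, 0.606). The sixth was Ldhb, which had at most 4 reads in a TS/A library. Car9 in TS/A stood at 1.31 and 1.40 CPM (32 and 26 reads) in the libraries labelled empty and at 1.49 and 1.71 CPM (39 and 37 reads) in those labelled Gpr56. Its groups did not overlap in either line and lay in opposite order. The TS/A log2 difference was 0.23 (SE 0.36) and did not pass the test, and 21.8% of all genes did not overlap between the TS/A labels. Without the second TS/A library labelled empty, which leaves 1 library in that group, Car9 was at 2.23 and Egln3 at 0.67. How far the counts moved when 1 library was left out is given below. Over all genes those calls were not split by direction.

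With the empty vector or label, TS/A and 4T1 were compared for 35 genes (all but Epas1) in edgeR. Slc2a3, Ldhb and Slc16a3 passed the filter through 1 line alone and are given by their reads. Of the other 32 genes, 20 differed: 14 were higher in TS/A, where 23.9% of all genes were, and 6 lower, where 23.5% of all genes were, beside 47.4% of all genes in either direction. TS/A had more Aldoc, Pfkp, Eno2, Pfkfb4, Bnip3 and Egln3 and 4T1 more Pfkfb3, Car9, Ndrg1 and Egln1. The median log2 difference of all 35 was 0.298, beside 0.0145 over all genes. Groups did not overlap for 29 of 35 (20 higher, 9 lower), where 72.5% of all genes did not overlap (35.9% higher, 36.6% lower). These values include Slc2a3 and Slc16a3 among the higher and Ldhb among the lower, and the direction of these 3 follows from the filter.

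Pfkfb3 had 34.1 and 35.9 CPM in 4T1 and 2.62 and 2.80 CPM in TS/A. It was lower in TS/A by a log2 difference of -3.69 (SE 0.15, edgeR adjusted p = 1.04e-06). Pfkfb4 was the other way round, with 7.09 and 8.22 CPM in 4T1 and 15.3 and 13.5 CPM in TS/A, a log2 difference of 0.91 (SE 0.19, edgeR adjusted p = 0.00503; 0.0529 without the first 4T1 empty-vector library). The bifunctional enzymes they encode set the level of fructose 2,6-bisphosphate, the activator of phosphofructokinase. Of the phosphofructokinase subunits, Pfkp had 70.4 and 67.6 CPM in 4T1 and 215 and 238.5 CPM in TS/A. Its log2 difference was 1.72 (SE 0.12, edgeR adjusted p = 1.68e-05), while Pfkm was at 0.79 (0.00254) and Pfkl, the liver type, at -0.33 (0.0367).

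Aldoc (chr11:78322968-78327781) had 4.00 and 4.09 CPM in 4T1 and 36.1 and 35.9 CPM in TS/A. Its log2 difference was 3.15 (SE 0.18, edgeR adjusted p = 6.08e-06), a fold of 8.885. Eno2, the neuronal enolase, had 0.900 and 1.60 CPM in 4T1 and 3.94 and 4.79 CPM in TS/A, a log2 difference of 1.78 (SE 0.35, edgeR adjusted p = 0.00389). Neither gene overlapped between lines. The far more abundant Aldoa did not pass the test (-0.09), and Eno1 was lower in TS/A at -0.37 (edgeR adjusted p = 0.0249). Ldhb had 48 and 33 reads in 4T1 and 0 in both TS/A libraries. Its mean was at least 13.2-fold lower in TS/A, from the 4T1 mean of 2.13 CPM over the higher TS/A floor of 3 reads (0.162 CPM). Slc2a3 had 0 reads in both 4T1 libraries and 38 and 32 reads (1.56 and 1.72 CPM) in TS/A, at least 9.72-fold higher by the mean in the same way. Slc16a3 had 7 and 1 reads in 4T1 and 12 and 11 reads in TS/A.

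In the hypoxia response, Bnip3 had 24.0 and 25.05 CPM in 4T1 and 42.0 and 101 CPM in TS/A. Its log2 difference was 1.54 (SE 0.36, edgeR adjusted p = 0.00842), and 0.77 (0.00122) without the second TS/A library labelled empty. It was not called without either 4T1 empty-vector library (0.0587 and 0.0542). Bnip3l, its paralogue in mitophagy, was higher in TS/A by 0.96 (SE 0.19, edgeR adjusted p = 0.00438). Egln3 had 55.2 and 53.5 CPM in 4T1 and 99.5 and 112 CPM in TS/A, a log2 difference of 0.96 (SE 0.11, edgeR adjusted p = 3.32e-04). Egln1 went the other way, from 107 and 97.1 CPM to 70.4 and 54.8 CPM, at -0.71 (SE 0.15, edgeR adjusted p = 0.00541; 0.0539 without the first 4T1 empty-vector library). Egln3 was thus higher and Egln1 lower in TS/A, while Hif1a did not pass the test (-0.21, edgeR adjusted p = 0.136).

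Car9 was lower in TS/A, with 3.49 and 2.68 CPM in 4T1 against 1.31 and 1.40 CPM, a log2 difference of -1.18 (SE 0.32, edgeR adjusted p = 0.0170; 0.132 without the first 4T1 empty-vector library). Ndrg1 was lower as well, with 165 and 164 CPM against 83.6 and 99.2 CPM, at -0.85 (SE 0.13, edgeR adjusted p = 0.00103). The remaining differences past the threshold were Tpi1 at 0.79, Pgk1 at 0.65, Pdk1 at 0.62, Kdm3a, a HIF-induced histone demethylase, at 0.57, Slc2a1 at 0.54 and Mxi1, a Myc antagonist, at 0.42.

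Of these 20 calls, 9 held whichever single library was left out (Pfkp, Pfkm, Pfkfb3, Aldoc, Tpi1, Eno2, Bnip3l, Egln3, Ndrg1), and 11 were lost without at least 1. Beside those given above, Slc2a1 and Kdm3a were lost without either 4T1 empty-vector library (edgeR adjusted p = 0.0689 and 0.0788 for Slc2a1, 0.0602 and 0.0508 for Kdm3a). Pgk1 and Pdk1 were lost without any library except the first TS/A library labelled empty, with edgeR adjusted p from 0.0511 to 0.163 and from 0.0697 to 0.182. Without the second of those, Pgk1 was at 0.24 and Pdk1 at 0.21. Pfkl was lost without any library except those 2 (0.0633 to 0.264), Eno1 without any 4T1 library (0.0562 to 0.160), and Mxi1 without a 4T1 empty-vector library or a TS/A library labelled Gpr56 (0.0618 to 0.196).

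Ankrd37 had 1.57 and 1.88 CPM in 4T1 and 2.38 and 5.22 CPM in TS/A and did not pass (1.12, edgeR adjusted p = 0.0536). It passed with library totals (0.0427), no filter on low counts (0.0173), the replicate number as a block (0.0218) and in DESeq2 (adjusted p = 0.0451). DESeq2 also called Gapdh (adjusted p = 0.0191) and Gpi1 (0.0326). Hk1, Hk2, Gpi1, Aldoa, Gapdh, Pgam1, Pkm, Ldha, Slc16a1, Hif1a and Higd1a did not pass in edgeR either. Without 1 TS/A library labelled empty, 10 of these genes passed, while the count over all genes went from 5674 to 7852 without the first and to 6958 without the second. Without the first, Ldha was at 0.66 (edgeR adjusted p = 4.44e-05), Ankrd37 at 1.59 (0.00149), Pkm at 0.28 (0.0198) and Hif1a at -0.26 (0.0246). Without the second, Higd1a was at -0.58 (edgeR adjusted p = 0.00102), Slc16a1 at 0.31 (0.00538), Aldoa at -0.30 (0.00778) and Pgam1 at -0.26 (0.0224). Gapdh and Gpi1 passed without either, at 0.23 and 0.35 for Gapdh and at -0.34 and -0.24 for Gpi1.

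**Figure D4:**
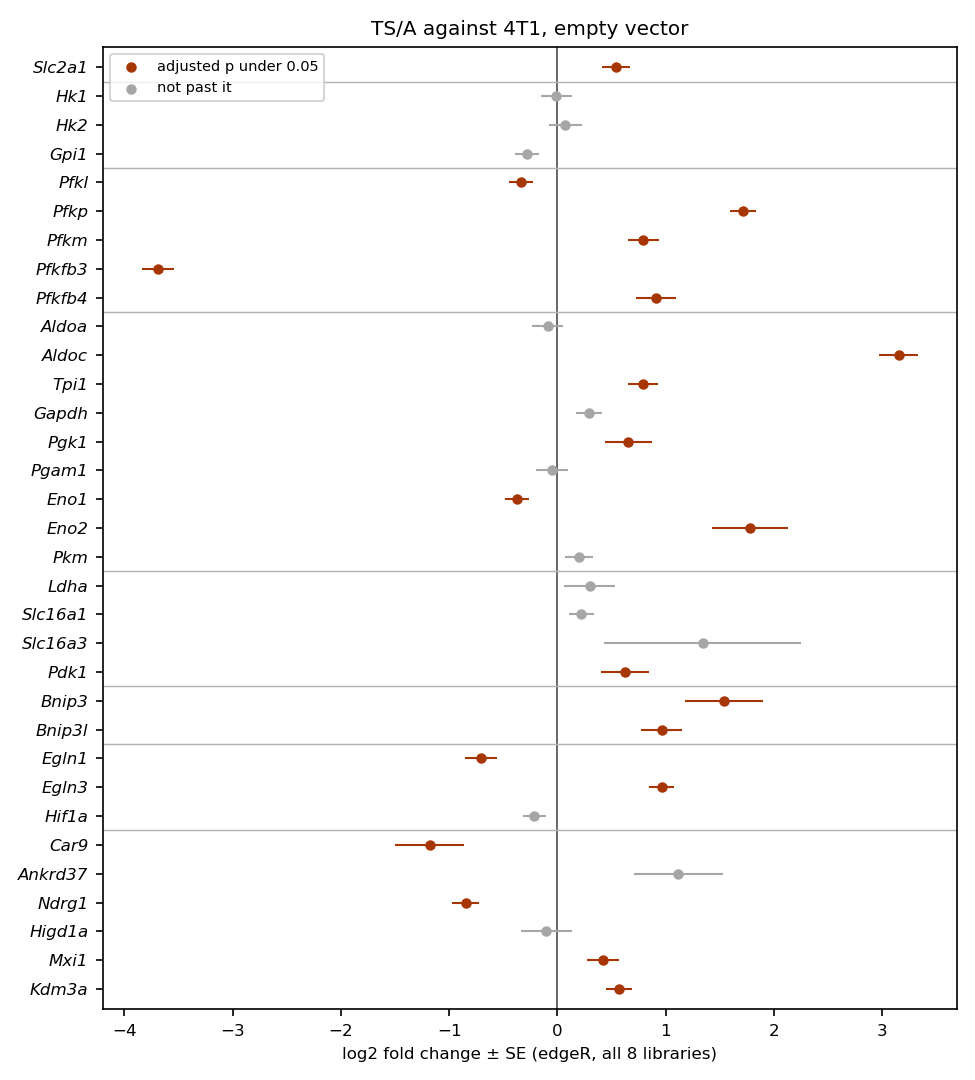
Log2 fold change of TS/A labelled empty against 4T1 with the empty vector, with bars of 1 SE, from edgeR on all 8 libraries; brown marks adjusted p under 0.05. Aldoc, Eno2, Pfkp and Bnip3 lie to the right and Pfkfb3 far to the left. Ldhb and Slc2a3 are left out because a line had 0 reads. Slc16a3, drawn here, passed the low-count filter through 1 line alone, so its position is not read as a result.

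Shares of each isoenzyme within its step were compared per length of transcript. They are of the RPKM summed over the genes of a step, over 4 libraries of each line, and are given without a test. Pfkp made up 18.3% to 20.6% of phosphofructokinase in 4T1 and 44.8% to 51.2% in TS/A. Pfkfb4 made up 19.1% to 22.4% of the pair with Pfkfb3 in 4T1 and 86.8% to 90.1% in TS/A. The lines did not overlap in either case.

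Egln3 made up 32.2% to 42.7% of the pair with Egln1 in 4T1 and 65.6% to 73.5% in TS/A. Within 4T1 its share was 41.04% and 42.7% in the empty-vector libraries, above the 32.2% and 35.3% of the Gpr56 libraries. Aldoc remained a small share of aldolase in both lines, at 0.32% to 0.42% in 4T1 and 2.90% to 4.55% in TS/A. Hk2 made up 29.5% to 34.9% of the hexokinase pair in 4T1 and 31.4% to 33.9% in TS/A, and there the lines overlapped. Bnip3l was the larger of the mitophagy pair throughout, at 67.1% to 75.9% in 4T1 and 57.2% to 66.8% in TS/A.

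**Figure D5:**
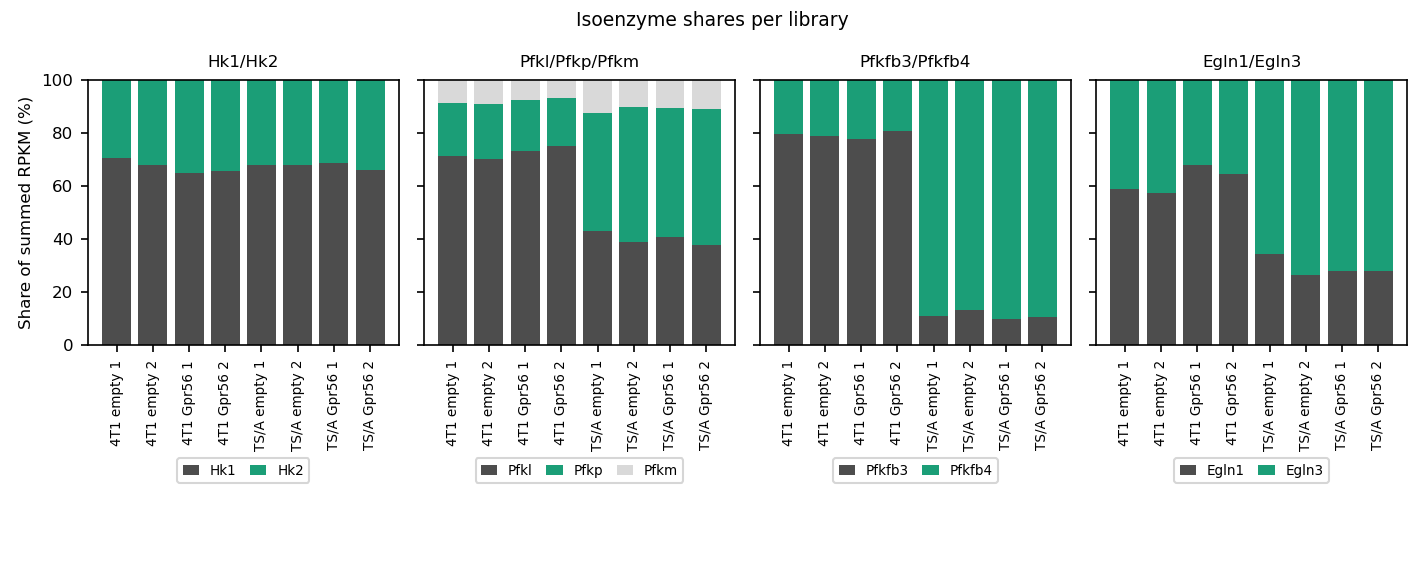
Share of each isoenzyme in the RPKM summed over its step, in percent, for each of the 8 libraries (hexokinase, phosphofructokinase, its bifunctional regulators, HIF prolyl hydroxylases). Pfkp, Pfkfb4 and Egln3 take larger shares in all 4 TS/A libraries, and the hexokinase shares overlap between lines.

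Pyruvate kinase is made in an M1 and an M2 form by choice between 2 neighbouring exons, and M2 is the form common in tumours. The transcript with the M2 exon (chr9:59675568-59675734, GRCm38) held 76.5% to 79.1% of the RPKM of both in 4T1 and 67.3% to 73.1% in TS/A. The M1 transcript carries the exon at chr9:59675029-59675195. How reads of shared exons were divided between transcripts is not given in the sources used here, and the difference was not tested.

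Of 31 other HIF target genes, 10 were higher in TS/A and 4 lower, beside 23.9% and 23.5% of all genes (47.4% in either direction), with a median log2 difference of 0.179. Loxl2, a lysyl oxidase that acts on collagen, went from 2.16 ± 0.269 CPM (SD, n = 2) in 4T1 to 33.15 ± 2.34 CPM in TS/A, a log2 difference of 3.93 (edgeR adjusted p = 3.01e-06). Vegfa went from 25.6 ± 2.66 CPM to 104.8 ± 4.50 CPM, at 2.03 (edgeR adjusted p = 1.50e-05). Cited2, a HIF-induced inhibitor of HIF's coactivators, was lower in TS/A at -1.76 and Gbe1, a glycogen branching enzyme, at -0.66. Of 14 genes of HIF hydroxylation and the VHL machinery, 7 were higher in TS/A and 0 lower, led above 10 CPM by Cul2 at 0.88 and Eloc at 0.86, both subunits of the VHL ligase (median 0.538).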

How the data were processed

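RNA of the 8 libraries came from the RNeasy Mini Kit and went through the TruSeq RNA v2 kit, per the labels' protocols. That kit does not mark strand, so a gene and an overlapping antisense gene cannot be told apart. Each deposited file lists 65042 transcripts with a whole-number count of reads and an RPKM value made by the authors, per the file headers. The ratio of reads to RPKM was the same between libraries up to 1 factor per library (tolerance 0.001) in 100.0% of transcripts with at least 21 reads. The authors' aligner, counter, genome build and annotation: not given in the sources used here.

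Counts were summed to genes through GENCODE release 21 for mouse (GRCm38), which held 65023 of the transcripts, and the other 19 were joined by name. Aldoa, listed under 2 identifiers, was summed to 1 gene. Tests used edgeR 4.0.16 (filterByExpr, TMM, quasi-likelihood, Benjamini-Hochberg over all genes tested, threshold 0.05): the 4 libraries of a line for the vector, and all 8 for the difference between lines and between vector effects. Levels are CPM after TMM scaling of all 8 libraries, except markers, which are per library total. RPKM was used for shares and for comparing genes. Alternatives were DESeq2 1.42.0, limma 3.58.1 (voom), other scalings and filters, a replicate block and leaving out each library. The code was tested on simulated data.

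The members and lists were chosen with earlier results of these data known. Named genes are the 36 members, with values per library for those past the threshold (up to 8 per line and up to 8 between lines, by size), and from each other list up to 2 genes each way past the threshold at or above 10 CPM on average in the higher of both groups. A few genes that this rule names are not reported here.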

Additional observations from a re-analysis of the deposited data

How the results depend on the processing

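In 4T1 the counts of 3 genes higher and 7 lower (6 without Ldhb) became 0 and 0 when all 8 libraries shared 1 fit, and 4 were lower with library totals as the scaling. Leaving out 1 library gave 1 to 3 higher and 3 to 8 lower. For the TS/A labels the count higher ranged from 0 to 5 when 1 library was left out, and for the difference between vector effects from 0 to 10. Between the lines it ranged from 8 to 19 higher and from 3 to 11 lower, beside 15 and 7 (14 and 6 without Slc2a3 and Ldhb). The difference in the Aldoc share between the lines was 2.94 percentage points by RPKM and 3.68 by read counts. Adgrg1 in TS/A was at -0.51 and ranged from -0.93 to 0.14 when 1 library was left out; it turned positive without the first library labelled empty (edgeR adjusted p = 0.854) and passed, at -0.93, without the second (0.0406).

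The replicate number as a block gave 3 higher and 6 lower in 4T1 (2820 genes in all, beside 2578), 0 for the TS/A labels (26 beside 0), 0 for the difference (37 beside 8) and 16 and 7 between the lines (6381 beside 5674). Numbers are shared by 2 pairs per line only. Over 11980 genes, the log2 ratios between libraries 1 and 2 of both groups correlated at -0.0365 in 4T1 and at 0.382 in TS/A. The TS/A libraries of 1 number thus shared part of their difference, and what it comes from was not tested. The main fits did not pair the libraries in either line.

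Over all genes, the 4T1 count of 2578 was 1542 with DESeq2, 27 in the shared fit and 1408 to 2702 without 1 library. The TS/A count of 0 reached 4 with no filter and 1004 without 1 library. The count of 8 for the difference was 67 with DESeq2, 0 with limma-voom, 58 with no filter, 4 with library totals and 0 to 2378 without 1 library. The count of 5674 between lines was 3712 from the 4 empty-vector libraries alone and 3340 to 7852 without 1 library. With 2 libraries per group, Epas1, Slc16a3, Ldhb and Slc2a3 were too thinly covered for small differences to be detectable.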

Other observations

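Values of genes that feed or drain glycolysis are given as log2 differences of TS/A labelled empty against 4T1 with the empty vector from edgeR, each past an adjusted p of 0.05. Over all genes 23.9% were higher in TS/A and 23.5% lower, so the counts of these lists are descriptions. Of 14 scarcer isoenzymes and gluconeogenic genes, 7 were higher in TS/A and 1 was lower. Pck2, the mitochondrial phosphoenolpyruvate carboxykinase, was higher by 1.82, Ldhd, a D-lactate dehydrogenase, by 1.30, and G6pc3, a glucose-6-phosphatase, lay at -0.91. Pyruvate entry and the tricarboxylic acid cycle had 7 of 30 genes higher and 4 lower, with pyruvate carboxylase (Pcx) at 1.61 and the phosphatase Pdp1 at 0.90 against Idh3g at -0.95 and citrate synthase (Cs) at -0.69.

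The pentose phosphate pathway had 2 of 11 genes higher (Rpe at 0.75, Prps1 at 0.55) and 1 lower (the transketolase Tkt at -0.32). Glycogen and hexosamine genes had 3 of 12 higher, among them Uap1 at 0.83, and 0 lower. Of 13 glycolysis regulators, 5 were higher and 4 lower. Trp53, which encodes the tumour suppressor p53, went from 42.8 ± 2.82 CPM (SD, n = 2) in 4T1 to 218 ± 36.2 CPM in TS/A, at 2.35. Txnip was higher by 1.24, while Mtor lay at -0.66.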
